A study of Homo sapiens with 6 samples.

Results

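Keratins are the intermediate filament proteins of epithelial cells, and small proline-rich (SPRR) proteins are cross-linked into the tough envelope that stratified epithelia build under their surface. The 66 protein-coding genes of both families were followed in PC9-BrM3 cells after silencing of AKR1B10, an aldo-keto reductase. They were taken by name from a table of 58735 genes, every protein-coding row called KRT or SPRR followed by a number and at most 1 letter. The set held 55 keratins and 11 SPRR genes, and 12 pseudogene rows with names of that form were left out. The members were divided by the tissue in which each keratin is known, into 5 simple epithelial keratins, 21 squamous keratins, 26 hair and follicle keratins and 3 other keratins.

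PC9 is a human lung adenocarcinoma line. PC9-BrM3 was derived from it by repeated passage through brain metastases in immunodeficient mice. All 6 libraries came from PC9-BrM3 cells in routine culture that carried a lentiviral shRNA. In BrM3-shAKR1B10 (n = 3) the shRNA targeted AKR1B10, and in BrM3-shNC (n = 3) it was a negative control. The labels do not say whether the 3 libraries of a group came from separate cultures, so the p-values measure the spread between these libraries, which may be technical. AKR1B10 itself stood at 107 to 110.2 FPKM in BrM3-shAKR1B10 and at 772 to 799 FPKM in BrM3-shNC (log2 fold change -2.85, SE 0.03, adjusted p = 1.6e-07 in limma). FPKM is the number of reads on a gene, scaled by gene length and library size. A library held 16964504 to 18709028 reads on genes.

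A keratin filament is built from pairs of a type I and a type II chain, so cells make both kinds together. Simple epithelia, the lung adenocarcinoma lineage included, carry KRT8 and KRT7 (type II) with KRT18 and KRT19 (type I). Squamous epithelia use other pairs at each stage: KRT5 with KRT14 in basal cells, KRT1 with KRT10 in the differentiating epidermis, KRT4 with KRT13 in the oral and oesophageal lining, KRT3 with KRT12 in the cornea, and KRT6 with KRT16 and KRT17 in wounded or activated epithelium. SPRR genes are switched on late in squamous differentiation and after injury.

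The sequences shown here are those of SPRR1A, the member with the largest difference on the log2 scale, with its close copy SPRR1B. They show how near the copy is, and the repeats from which the family takes its name. Each coding sequence has 89 codons before the stop. Of these, 27 in SPRR1A (30.3%) and 26 in SPRR1B (29.2%) begin with CC and encode proline. These codons are in capitals, and the sequences are those of the GENCODE 29 transcripts, 5′ to 3′.
SPRR1A coding sequence: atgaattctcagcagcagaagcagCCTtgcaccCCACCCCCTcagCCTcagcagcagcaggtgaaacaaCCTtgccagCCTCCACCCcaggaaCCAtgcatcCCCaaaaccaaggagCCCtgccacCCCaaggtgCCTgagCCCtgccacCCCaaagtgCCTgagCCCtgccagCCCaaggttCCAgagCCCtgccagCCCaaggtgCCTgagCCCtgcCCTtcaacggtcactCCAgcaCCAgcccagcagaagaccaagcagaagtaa
SPRR1B coding sequence: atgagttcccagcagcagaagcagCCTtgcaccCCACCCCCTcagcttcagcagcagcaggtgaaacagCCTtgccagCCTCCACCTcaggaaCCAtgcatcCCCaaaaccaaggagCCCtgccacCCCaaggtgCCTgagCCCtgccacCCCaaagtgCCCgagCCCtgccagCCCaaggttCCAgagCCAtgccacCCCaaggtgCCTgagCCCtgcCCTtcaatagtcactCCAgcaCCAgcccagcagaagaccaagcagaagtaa
The sequences differed at 10 of 270 bases (96.3% identity), and the longest stretch without a difference was 74 bases. SPRR1A lies on the plus strand of chromosome 1 in the epidermal differentiation cluster. The deposited table gives it as the 270 bases from 152985231 to 152985500 (GRCh38), which is the coding sequence alone. In RefSeq the gene runs from 152984081 to 152985814, so reads outside the coding sequence were not counted for it.

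The 250 bases before the RefSeq start (GRCh38.p14) are shown for SPRR1A and SPRR3, both of which had more reads in every silenced library than in any control library. Capitals mark the letters TGANTCA, where N is any base. This pattern is wide enough to include the sites known for AP-1 factors, and it reads the same on both strands.
SPRR1A, chr1:152983831-152984080, plus strand: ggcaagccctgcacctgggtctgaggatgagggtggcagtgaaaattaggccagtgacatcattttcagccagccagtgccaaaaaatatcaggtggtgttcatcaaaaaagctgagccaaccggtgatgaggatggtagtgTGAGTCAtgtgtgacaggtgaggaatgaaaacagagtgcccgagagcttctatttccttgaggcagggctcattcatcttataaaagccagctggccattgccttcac
SPRR3, chr1:153001499-153001748, plus strand: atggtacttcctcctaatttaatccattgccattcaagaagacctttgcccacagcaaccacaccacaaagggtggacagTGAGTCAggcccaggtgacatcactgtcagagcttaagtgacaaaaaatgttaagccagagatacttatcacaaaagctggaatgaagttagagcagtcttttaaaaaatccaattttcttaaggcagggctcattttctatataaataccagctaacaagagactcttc
The match began 108 bases before the start in SPRR1A and 170 bases before it in SPRR3. Windows were at hand for 43 of the 66 members. The letters were in 6 of 9 SPRR genes (SPRR1A, SPRR1B, SPRR2A, SPRR2F, SPRR2G and SPRR3) and in 0 of 34 keratins. Among these 6, SPRR1B overlapped between the groups, and SPRR2A, SPRR2F and SPRR2G had no read in any library. KRT7, KRT15, KRT16, KRT17, KRT18, KRT19 and KRT80 were among the members without a window. Over all 35116 promoter windows of the same length, 6.57% held the letters TGANTCA. The letters TATAAA, on either strand, were in 8 of 9 SPRR genes and 21 of 34 keratins, and in 10.7% of all windows. A match of letters does not show that a factor binds there.

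Most of the family was at a low level or without reads in these cells. Of the 66 members, 12 had a mean of at least 1 FPKM over the 6 libraries, 15 had less but at least 10 reads in some library, 16 had between 1 and 9 reads in their best library, and 23 had no read in any library. The level at 0 allows up to 3 reads, or 0.163 to 0.177 FPKM for a gene of 1 kb, and covers counting error only. The 12 members that passed the filter were KRT7, KRT8, KRT18 and KRT19, the squamous keratins KRT3, KRT4, KRT10, KRT15, KRT16 and KRT17, then KRT80 and SPRR1A. SPRR1A passed only through its level in the silenced libraries, so it had to differ and is left out of the counts that follow.

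In limma on log2(FPKM + 0.1), 2 of the other 11 members were called higher in BrM3-shAKR1B10 (KRT4 and KRT16) and 1 was called lower (KRT17). A call needed an adjusted p under 0.05 and a log2 fold change beyond 0.5 in either direction. Over the 13150 genes tested, 5.83% were called higher and 7.45% lower. Without the fold threshold, 7 of the 11 had an adjusted p under 0.05, against 42.5% of all genes tested. FPKM values of 3 members lay higher in every silenced library than in any control library, against 25.5% of genes tested, and those of 4 lay lower, against 29.2%. The median log2 fold change of the 11 was 0.03, against -0.01 over all genes tested. With counts this small, these shares are given as a description only.

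**Figure D1:**
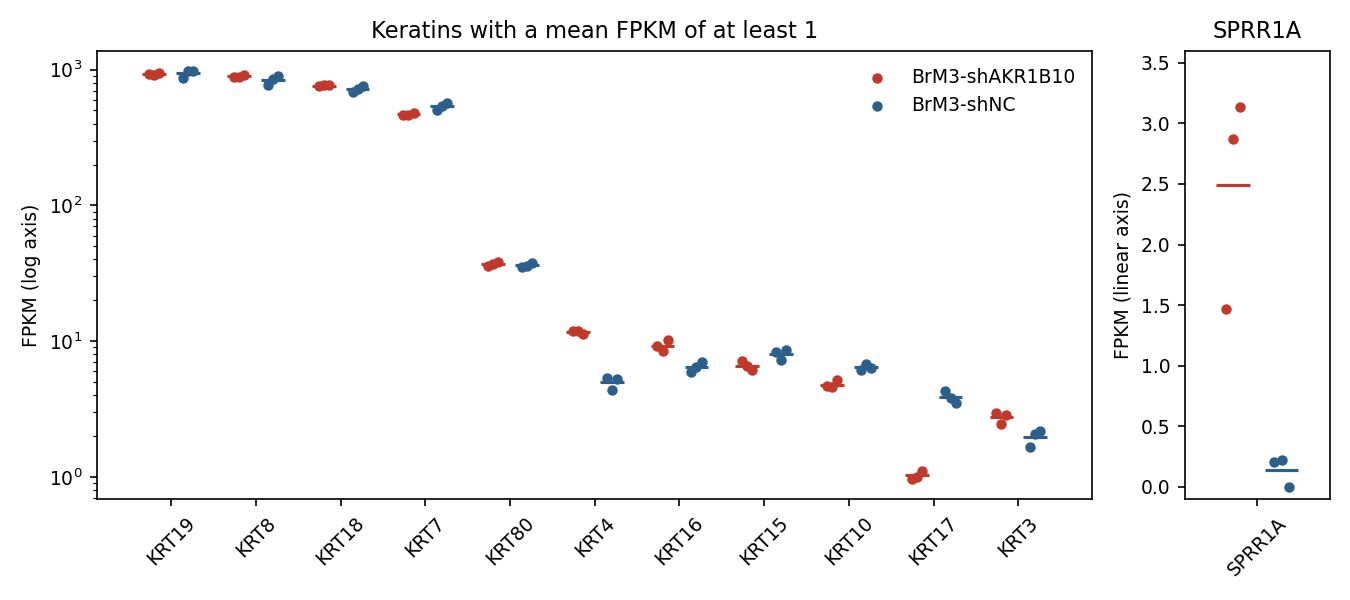
FPKM of each of the 6 libraries for the 12 members with a mean of at least 1, with red points for BrM3-shAKR1B10, blue points for BrM3-shNC and a bar at each group mean. The axis is logarithmic for the keratins and linear for SPRR1A, which has a control library at 0. The 4 simple epithelial keratins sit between 459 and 974 FPKM and the 6 squamous keratins between 0.976 and 11.8 FPKM, with the groups apart for KRT4, KRT16, KRT15, KRT10, KRT17, KRT3 and KRT7.

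The simple epithelial keratins dominated the filament transcripts in both groups. KRT7, KRT8, KRT18, KRT19 and KRT20 together made up 97.5% of keratin FPKM in each BrM3-shAKR1B10 library and 97.5% to 97.7% in the BrM3-shNC libraries. By mean FPKM over the 6 libraries KRT19 ranked 23, KRT8 ranked 27, KRT18 ranked 31 and KRT7 ranked 44 among all genes of the table. KRT20, the keratin of intestinal and urothelial surface cells, had at most 6 reads in a library.

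KRT19, a type I keratin of ducts and glands, measured 932, 911 and 952 FPKM after silencing and 869, 974 and 973 FPKM in the controls. The groups overlapped (means 932 ± 20.1 and 939 ± 60.4, SD, n = 3 each). The log2 fold change was -0.01 with a 95% interval from -0.14 to 0.12 (limma, adjusted p = 0.908).

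KRT8, the type II keratin of simple epithelia, measured 888, 884 and 912 FPKM against 770, 850 and 898 FPKM. Its partner KRT18 measured 758, 765 and 767 FPKM against 683, 726 and 763 FPKM. For both genes the lowest library was control replicate 1 and the groups overlapped. Their log2 fold changes were 0.10 for KRT8 (95% interval -0.05 to 0.24) and 0.08 for KRT18 (-0.03 to 0.19), with adjusted p = 0.236 and 0.215 in limma. With voom on the recovered reads they were 0.14 and 0.13, with adjusted p = 0.0103 and 0.00772, still under the fold threshold.

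KRT8 and KRT18 are neighbors on chromosome 12, the first on the minus strand (52897187 to 52949954) and the second on the plus strand (52948871 to 52952901), and their annotated spans overlap. Of the 100-base windows in KRT18 transcripts, 8.39% also occurred in KRT8 transcripts on the opposite strand, so reads there could be given to either gene. Their ratio of FPKM lay between 1.16 and 1.19 in BrM3-shAKR1B10 and between 1.13 and 1.18 in BrM3-shNC. Per base of the principal transcript it was 1.82 to 1.87 and 1.77 to 1.85, so which length is used sets its size. The many processed pseudogenes of both genes took few reads, 0.362% to 0.464% of the reads of KRT8 for its 50 pseudogenes and 0.0558% to 0.114% of those of KRT18 for its 67.

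KRT7, the type II keratin of glandular and lung epithelium, was the simple keratin whose groups stood apart. It measured 464, 459 and 482 FPKM in BrM3-shAKR1B10 and 503, 537 and 566 FPKM in BrM3-shNC. Every silenced library lay below every control library. The log2 fold change was -0.19 (SE 0.05, 95% interval -0.31 to -0.07, limma adjusted p = 0.0207), under the fold threshold for a call. Set against KRT19, KRT7 made a ratio of 0.498 to 0.506 in the silenced libraries and 0.552 to 0.582 in the controls. Over the whole family, type I keratins summed to 1698 to 1743 FPKM against 1579 to 1764 FPKM, and type II keratins to 1399 to 1451 FPKM against 1319 to 1512 FPKM. For both types the groups overlapped. In bulk RNA, fewer cells that make a transcript and less transcript per cell cannot be told apart.

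The balance of type II to type I depended on the length by which reads are divided. With the deposited gene length, which is the union of all exons, the ratio of the sums was 0.826 ± 0.0062 in BrM3-shAKR1B10 and 0.841 ± 0.015 in BrM3-shNC (SD, n = 3 each). Per base of the principal transcript, it was 1.28 ± 0.0096 and 1.29 ± 0.023. The deposited length of KRT8 was 6881 bases, and its principal transcript had 2126. On either length the ranges of the groups overlapped, from 0.820 to 0.832 against 0.830 to 0.857 with the deposited length.

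KRT80, a type II keratin found in many epithelia, was the fifth most abundant member. It measured 35.7, 37.1 and 38.5 FPKM against 35.5, 35.9 and 37.7 FPKM. The groups overlapped, with a log2 fold change of 0.03 (95% interval -0.07 to 0.13, limma adjusted p = 0.617).

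Of the 21 squamous keratins, 6 were tested, with KRT4 and KRT16 called higher and KRT17 called lower in BrM3-shAKR1B10. Over all genes tested, 5.83% were called higher and 7.45% lower. KRT3, KRT10 and KRT15 were under the fold threshold. All 6 had an adjusted p under 0.05 in limma, as did 42.5% of all genes tested. Their groups did not overlap, which held for 25.5% of all genes tested in the higher direction and for 29.2% in the lower. Together the 21 summed to 37.9 to 39.9 FPKM in BrM3-shAKR1B10 and 33.5 to 36.4 FPKM in BrM3-shNC, and these ranges did not overlap. The sum rests on KRT4. Without it the other 20 summed to 26.1 to 28.5 FPKM against 29.1 to 31.1 FPKM, apart in the opposite direction.

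KRT17, a type I keratin of basal and activated epithelial cells, fell most among the members tested. Its values were 0.976, 1.01 and 1.12 FPKM in the silenced libraries and 4.32, 3.82 and 3.54 FPKM in the controls, from 173 and 652 reads in all. The highest silenced library was under the lowest control library by a wide margin. The log2 fold change was -1.81 (SE 0.11, limma adjusted p = 5.5e-05). In FPKM, with no pseudocount added, its mean was 26.6% of the control mean. KRT17 spans the stretch of chromosome 17, minus strand, from 41619441 to 41624842 (GRCh38), and only 0.147% of its 100-base windows occurred in transcripts of another gene.

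KRT16, the type I keratin of activated epithelium that is often made together with KRT17, went the other way. It measured 9.26, 8.41 and 10.2 FPKM against 5.94, 6.45 and 7.02 FPKM. The groups did not overlap, and the log2 fold change was 0.51 (SE 0.09, limma adjusted p = 0.00411), just past the fold threshold. Without replicate 3 of BrM3-shAKR1B10 it was 0.45 and without replicate 1 of BrM3-shNC it was also 0.45, which ended the call both times. The pair sit next to each other, with 3541 bases between them, and the ratio of KRT16 to KRT17 was 8.34 to 9.48 in BrM3-shAKR1B10 and 1.38 to 1.98 in BrM3-shNC. KRT16 shared 4.69% of its 100-base windows with other genes, KRT14 first, and KRT14 had at most 11 reads in a library.

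KRT4, the type II keratin of the oral and oesophageal lining, rose most among the keratins tested. It measured 11.8, 11.8 and 11.4 FPKM in BrM3-shAKR1B10 and 5.40, 4.37 and 5.29 FPKM in BrM3-shNC. The silenced libraries were close together and all above the controls. The log2 fold change was 1.21 (SE 0.08, limma adjusted p = 9.7e-05), or 2.31-fold. KRT4 is read from the minus strand of chromosome 12, between 52806549 and 52814551, and none of its windows occurred in another gene. Its type I partner KRT13 had 20, 26 and 35 reads after silencing and 51, 35 and 50 reads in control cells, and it stood at 59.9% of its control mean in FPKM.

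KRT3, the type II keratin of the cornea, lies next to KRT4 in the cluster. It measured 2.98, 2.46 and 2.87 FPKM against 1.67, 2.09 and 2.20 FPKM, with every silenced library above the controls. The log2 fold change of 0.46 (SE 0.13, limma adjusted p = 0.0262) was under the fold threshold. It passed without BrM3-shAKR1B10 replicate 2 (0.54), without BrM3-shNC replicate 2 (0.50) and without BrM3-shNC replicate 3 (0.54). KRT12, the corneal partner, had at most 6 reads in a library.

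KRT10 and KRT15, type I keratins of the differentiating epidermis and of basal cells, had lower values that were not called. KRT10 measured 4.65, 4.60 and 5.15 FPKM against 6.15, 6.84 and 6.34 FPKM (log2 fold change -0.42, SE 0.07, limma adjusted p = 0.00294). KRT15 measured 7.15, 6.59 and 6.11 FPKM against 8.27, 7.27 and 8.64 FPKM (log2 fold change -0.28, SE 0.08, limma adjusted p = 0.0351). In neither gene did the groups overlap, and in neither did the change reach the fold threshold. KRT1, the type II partner of KRT10, had 0 reads in all 3 silenced libraries and 1, 5 and 7 reads in the controls. With 3 reads set as the floor over the silenced group, KRT1 came out 4.33-fold lower in BrM3-shAKR1B10. That figure leaves aside the counting error of the 13 control reads. The exact 95% interval of the ratio, which covers counting error only, reached up to 0.328 of the control. KRT1 lay below the filter for the test, and in the fit with no filter its adjusted p in limma was 0.106.

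**Figure D2:**
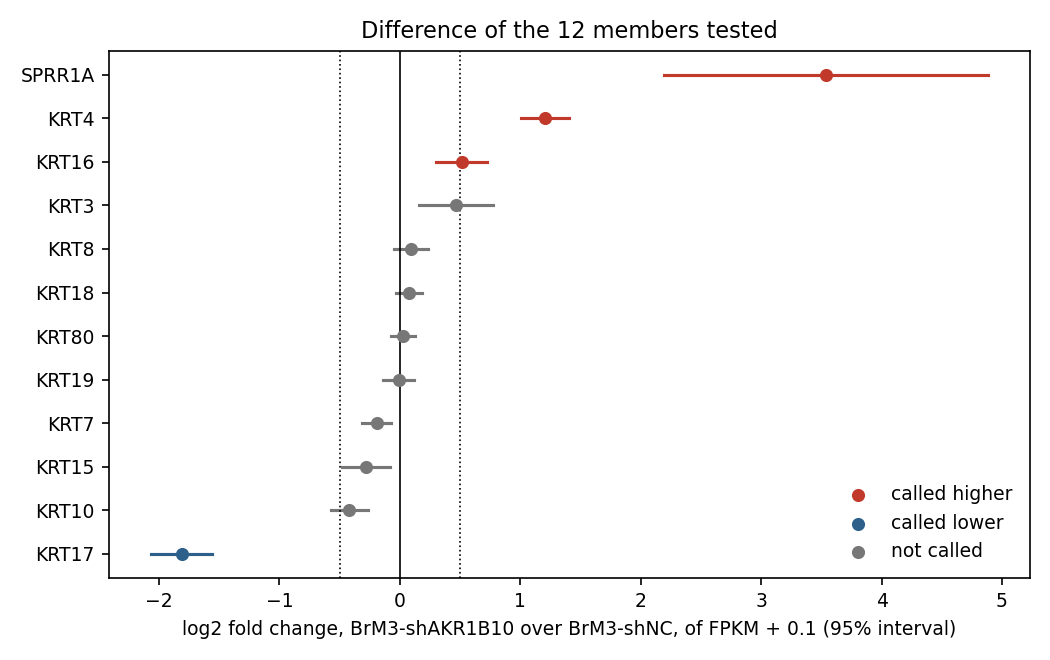
Log2 fold change of BrM3-shAKR1B10 over BrM3-shNC on the FPKM + 0.1 scale for the 12 members tested, with the 95% interval from limma, a solid line at 0 and dotted lines at the fold threshold of 0.5. SPRR1A (3.54) has the widest interval, from 2.19 to 4.88, KRT17 (-1.81) is the one member called lower, and the simple keratins and KRT80 lie near 0.

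**Figure D3:**
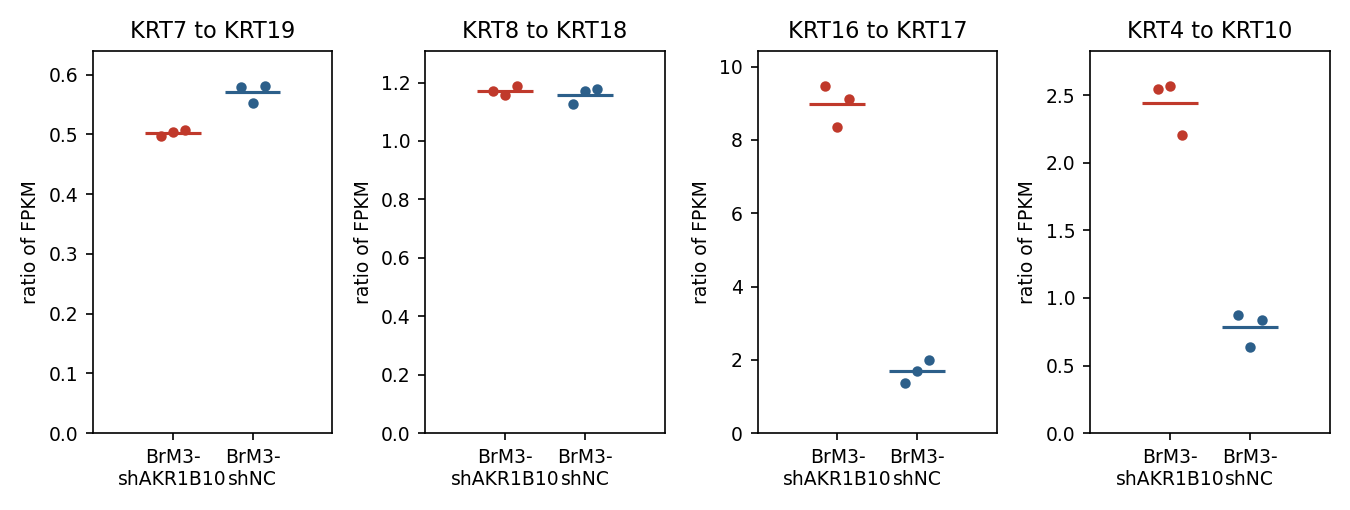
Ratios of FPKM between pairs of keratins in each library, on linear axes from 0, with a bar at each group mean. KRT8 to KRT18 overlaps between the groups, KRT7 to KRT19 is lower in BrM3-shAKR1B10 (0.503 ± 0.0045 against 0.571 ± 0.017, SD, n = 3), and KRT16 to KRT17 (8.98 ± 0.58 against 1.68 ± 0.30) and KRT4 to KRT10 (2.44 ± 0.21 against 0.784 ± 0.127) are higher.

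SPRR1A, a precursor of the cornified envelope, had 7, 14 and 15 reads after silencing of AKR1B10 and 1, 1 and 0 in the controls. This came to 1.47, 2.87 and 3.13 FPKM against 0.202, 0.219 and 0 FPKM, so that all silenced libraries were above all controls. The log2 fold change on the FPKM + 0.1 scale was 3.54 (SE 0.56), and it moved from 1.58 with a pseudocount of 1 to 4.92 with a pseudocount of 0.01. From the reads, 36 against 2 gave a ratio of 18.02 once scaled to library size, with an exact 95% interval from 4.64 to 155 that covers counting error only. Without replicate 3 of BrM3-shAKR1B10 its mean was under 1 FPKM. Because it met that filter only through the silenced libraries, its p from the filtered fit is not a test. In the fit with no filter its adjusted p in limma was 0.0075. None of its 100-base windows occurred in another transcript, SPRR1B included.

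SPRR3, the SPRR gene of the oesophageal lining, had 10, 13 and 10 reads against 6, 6 and 5. The groups did not overlap, and its mean stood at 194% of the control mean in FPKM. SPRR1B, the close copy of SPRR1A, had 5, 3 and 1 reads against 1, 0 and 4, and its groups overlapped. SPRR2D and SPRR4 had at most 2 reads in a library, and SPRR2A, SPRR2B, SPRR2E, SPRR2F, SPRR2G and SPRR5 had none. All SPRR genes together had 24 to 30 reads in a silenced library and 7 to 9 in a control library. This sum rests largely on SPRR1A, with 36 reads over the silenced libraries and 2 over the controls. SPRR3 had 33 and 17.

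The remaining members with at least 10 reads were too low to enter the test. Of all 15, FPKM lay lower in every silenced library for 4 (KRT5, KRT13, KRT23 and KRT40) and higher for 2 (KRT79 and SPRR3). Among the 5038 genes of the whole table in the same range, 12.4% were lower and 19.2% higher in that sense. With no filter on level, 31 members under 1 FPKM entered limma and 0 were called, against 2.46% of all genes under that level. An unadjusted p under 0.05 was found for 6 of the 31, against 7.99% of those genes.

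KRT5, the type II keratin of basal squamous cells, had 8, 6 and 10 reads in BrM3-shAKR1B10 and 21, 17 and 21 in BrM3-shNC, or 40.9% of the control mean in FPKM. Its partner KRT14 had 11, 6 and 2 reads against 2, 3 and 3. The groups of KRT5 stood apart, and those of KRT14 overlapped. KRT6A, of activated epithelium, had 5, 15 and 16 reads against 10, 2 and 4, and KRT6B had 33, 27 and 30 against 28, 15 and 37, with overlap in both. KRT6A, KRT6B and KRT6C share from 13.6% to 24.7% of their windows with other genes, mostly with each other, so their split is uncertain.

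KRT79, a squamous keratin of skin and sebaceous ducts, had 22, 25 and 17 reads against 17, 5 and 9. It lay at 209% of its control mean in FPKM, although the lowest silenced library and the highest control library had equal reads. KRT23, a type I keratin outside both classes, had 2, 5 and 4 reads against 13, 7 and 16, or 30.8% of its control mean. KRT40, a hair keratin, had 6, 8 and 5 reads against 13, 8 and 12, with equal reads at the border. KRT9, KRT78, KRT32, KRT39, KRT81 and KRT86 had between 4 and 55 reads in a library and overlapped between the groups. KRT81 and KRT86 are hair keratins that share 29.7% and 25.8% of their windows with other genes, mostly with each other, and KRT86 also spans part of KRT7.

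**Figure D4:**
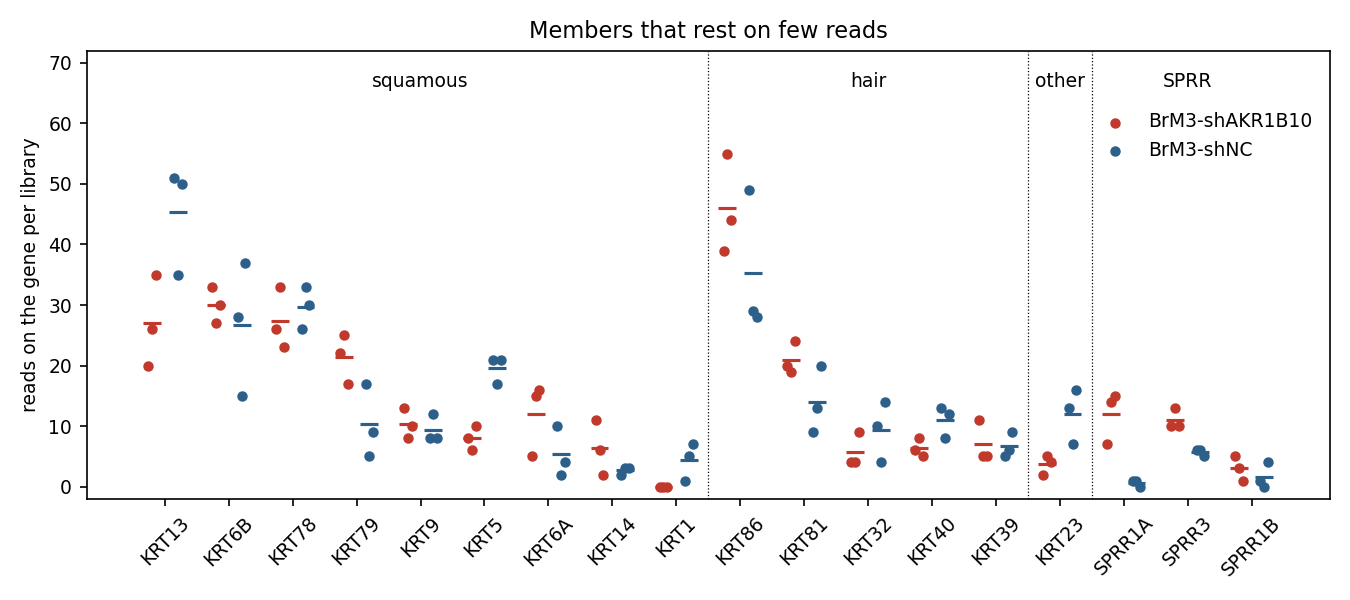
Reads on the gene in each library for the 15 members with a mean under 1 FPKM and at least 10 reads in some library, and for SPRR1A, SPRR1B and KRT1, grouped by class with bars at the group means. Red points are BrM3-shAKR1B10 and blue points BrM3-shNC. SPRR1A and SPRR3 are higher and KRT5, KRT23 and KRT1 lower in every red point, while KRT13, KRT79 and KRT40 touch at equal reads.

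Position in the genome cut across these groups. The 26 type II keratins lie together on chromosome 12 from 52168996 to 52949954, with the type I gene KRT18 at the end, and the other 28 type I keratins lie on chromosome 17 from 40654665 to 41624842. On chromosome 12, the adjacent genes KRT3, KRT4 and KRT79 were all higher in FPKM in every silenced library, although KRT79 had equal reads at the border. KRT78, on one side of them, overlapped. KRT76, on the other, had at most 1 read in a library and marks no border. Of all genes tested, 25.5% were higher in every silenced library and 29.2% lower. Among genes under 1 FPKM with at least 10 reads, these shares were 19.2% and 12.4%. On chromosome 17, KRT13 and KRT15 were lower in FPKM side by side, with equal reads at the border for KRT13. KRT19 lies 1087 bases from KRT15 and overlapped between the groups. SPRR1A and SPRR3 are neighbors on chromosome 1, with 16246 bases between them as the table annotates them. Of the 26 hair and follicle keratins, 15 had no read, and the runs of neighbors at 0 included KRT25, KRT26, KRT27 and KRT28 on chromosome 17 and KRT85, KRT84, KRT82 and KRT75 on chromosome 12.

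**Figure D5:**
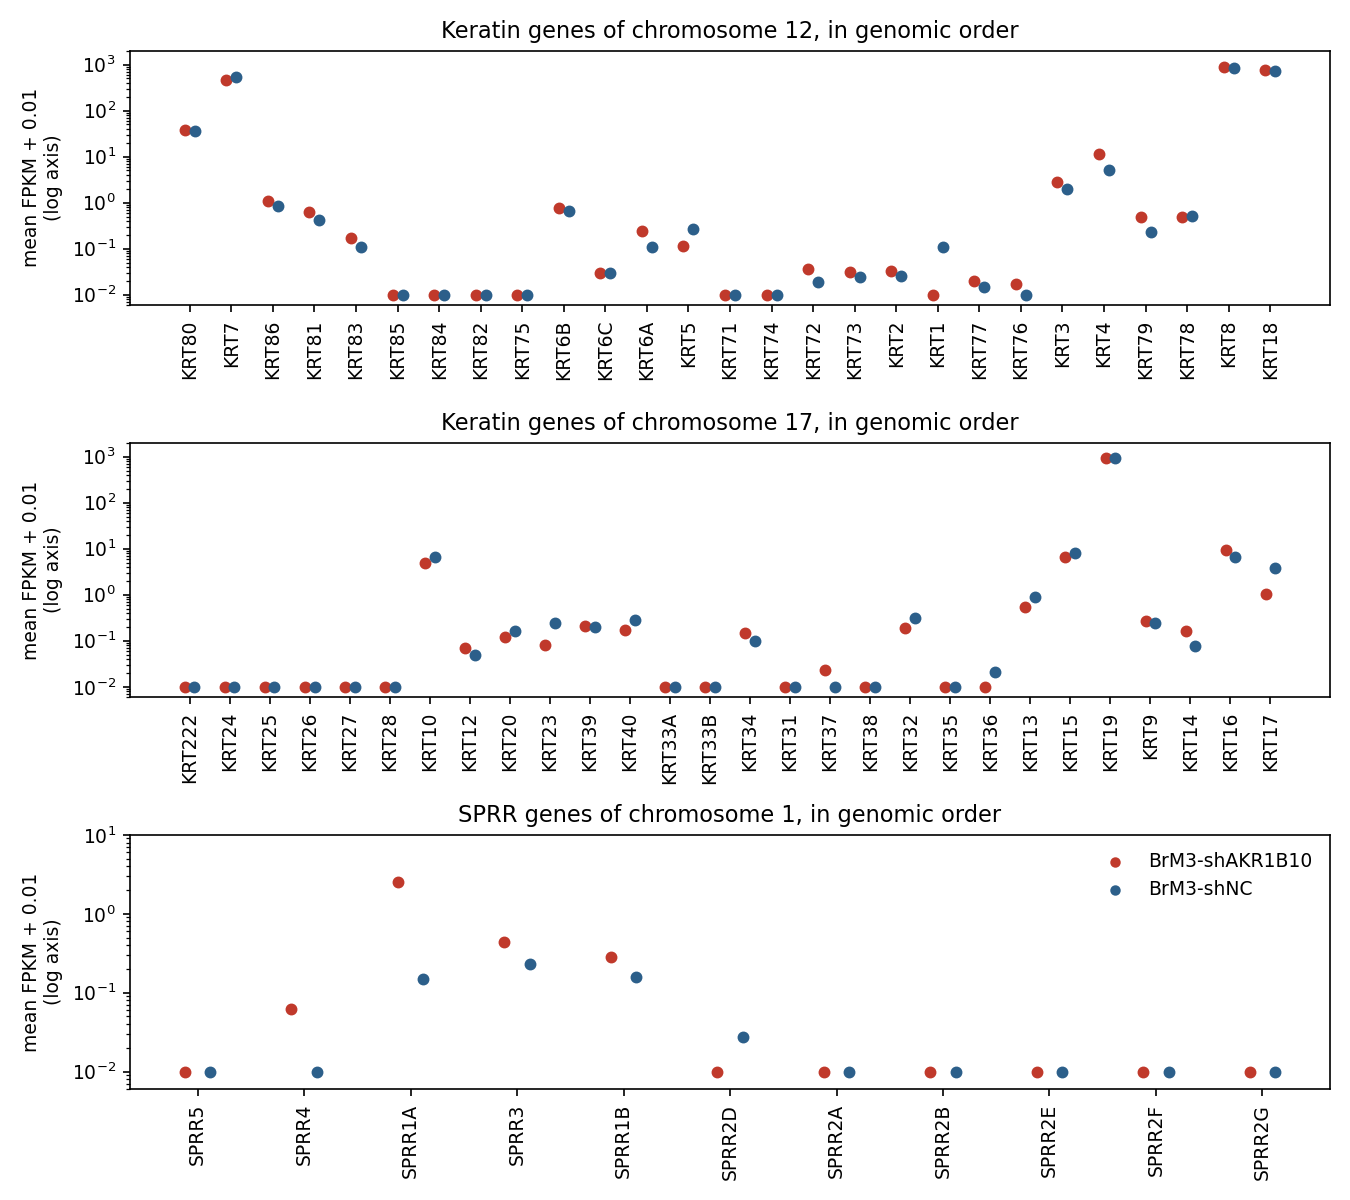
Mean FPKM + 0.01 of each group on a log axis for the 27 keratin genes of chromosome 12, the 28 of chromosome 17 and the 11 SPRR genes of chromosome 1, in genomic order. Points at the bottom are genes with no read. KRT8 and KRT18 stand together at one end of the first cluster, KRT3, KRT4 and KRT79 lie side by side with red above blue, and KRT16 and KRT17 at the end of the second cluster point in opposite directions.

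Among 30 other genes of the cornified envelope and its processing, 10 were tested, with 3 called higher and 1 lower (median log2 fold change 0.34, against -0.01 over all genes tested, of which 5.83% were called higher and 7.45% lower). The genes called higher were SCEL, which encodes the envelope precursor sciellin (4.54 ± 0.68 against 2.18 ± 0.20 FPKM, log2 fold change 1.02), the transglutaminase gene TGM2 (7.0 ± 0.18 against 4.21 ± 0.17, 0.72) and PPL, which encodes periplakin (45.1 ± 0.31 against 31.1 ± 0.29, 0.54). Their adjusted p in limma was 8.8e-04, 9.7e-05 and 3.0e-05. KLK7, a protease of skin shedding, was called lower (3.93 ± 0.27 against 5.76 ± 0.79 FPKM, log2 fold change -0.53, adjusted p = 0.00752). That call ended with a pseudocount of 1 (-0.45), with voom (-0.49), without BrM3-shAKR1B10 replicate 1 (-0.48) and without BrM3-shNC replicate 2 (-0.43). LOR, CRNN, LCE3D and LCE3E, genes of terminally differentiated epithelium, had no read.

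Of 29 factors that direct epithelial differentiation, 25 were tested, with 1 higher and 1 lower (median log2 fold change -0.01). Over all genes tested, 5.83% were called higher and 7.45% lower. The counts are small and move with the settings, to 3 higher with voom, 2 higher without BrM3-shNC replicate 2 and 2 lower without BrM3-shAKR1B10 replicate 3. With no fold threshold 6 were higher and 9 lower, and 42.5% of all genes passed in either direction. GRHL3, a factor of barrier formation, rose from 3.16 ± 0.22 to 5.70 ± 0.11 FPKM (log2 fold change 0.83, limma adjusted p = 1.5e-04). FOSL1, an AP-1 subunit, fell from 22.2 ± 1.5 to 12.3 ± 0.82 FPKM (-0.85, adjusted p = 1.8e-04). TP63, the master factor of squamous lineages, was at 0.484 ± 0.079 and 0.452 ± 0.055 FPKM and overlapped between the groups.

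Of 13 proteins that bind or anchor keratin filaments, 12 were tested, with 2 higher and 2 lower (median log2 fold change 0.05). Over all genes tested, 5.83% were called higher and 7.45% lower, with a median of -0.01. PLEC, which encodes plectin, rose from 40.1 ± 2.3 to 58.9 ± 2.6 FPKM (0.55, limma adjusted p = 4.0e-04), and PPL, counted here as well, rose as given above. The desmosomal genes DSP, from 39.5 ± 1.3 to 27.7 ± 0.49 FPKM (-0.51, adjusted p = 1.0e-04), and PKP2, from 9.86 ± 0.35 to 5.53 ± 0.46 FPKM (-0.82, adjusted p = 2.0e-04), fell. Desmosomes are the junctions to which keratin filaments are tied. DSP was just past the fold threshold, and its call ended with a pseudocount of 1 (-0.50), TPM scaling (-0.47) and voom (-0.46). It also ended without BrM3-shAKR1B10 replicate 1 (-0.50) and without BrM3-shNC replicate 2 (-0.48).

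Of 16 other intermediate filament genes, 8 were tested and 4 were called lower with 0 higher (median log2 fold change -0.45). The shares over all genes tested were 7.45% and 5.83%, and the median was -0.01. INA, a neuronal filament gene, had higher values in every silenced library (log2 fold change 0.21, limma adjusted p = 0.0312) under the fold threshold. It was the 1 gene with an unadjusted p under 0.05 in that direction, and voom on the reads also called 0 higher. The lamin genes LMNB1 (59.7 ± 2.0 to 35.8 ± 0.64 FPKM, -0.74) and LMNB2 (78.9 ± 6.2 to 48.8 ± 2.0, -0.69), which form the nuclear lamina, fell, and so did NES (4.52 ± 0.21 to 2.28 ± 0.17, -0.96) and NEFH (10.9 ± 0.53 to 7.32 ± 0.14, -0.56), known from neural cells. Their adjusted p in limma was 2.7e-05, 3.2e-04, 1.7e-04 and 2.2e-04. VIM, the filament of mesenchymal cells, had at most 3 reads in a library.

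Markers of other cell types were checked beside these results. Of the adenocarcinoma markers, EPCAM stood at 90.2 ± 4.3 against 107 ± 5.4 FPKM (log2 fold change -0.24) and CDH1 at 52.0 ± 0.60 against 46.4 ± 1.6 FPKM (0.16), both with adjusted p = 0.00975 and under the fold threshold in limma. MUC1 was called higher (5.40 ± 0.27 against 3.45 ± 0.22 FPKM, 0.63, adjusted p = 5.6e-04). The lung lineage markers NKX2-1 and NAPSA were under 1 FPKM and SFTPB and SFTPC had at most 3 reads, so the lung origin rests on the label. The 10 squamous markers summed to 1.81 to 2.25 FPKM against 1.55 to 2.15 FPKM, with DSC3 at 0 and DSG3 and PKP1 at no more than 2 reads. None of the 10 reached the filter for the test. In FPKM, IVL (0.366 ± 0.160 against 0.103 ± 0.066) and CLCA2 (0.117 ± 0.032 against 0.0165 ± 0.0067) lay higher in every silenced library, KRT5 and KRT13 lay lower, and the groups of the others overlapped. The 8 fibroblast markers summed to 1.20 to 1.37 FPKM against 2.03 to 2.08 FPKM, nearly all of it COL1A1 (log2 fold change -0.67, called lower), with COL1A2, DCN, LUM and PDGFRA at 0. The 8 haematopoietic markers summed to 1.16 to 1.19 FPKM against 1.32 to 1.64 FPKM, with LYZ, TYROBP and HBB at 0. The 6 endothelial markers summed to 2.10 to 2.38 FPKM against 1.52 to 1.83 FPKM, mostly CDH5 (log2 fold change 0.65, called higher), with KDR at 0. The calls of COL1A1 (-0.43) and CDH5 (0.41) ended with a pseudocount of 1. The part of these differences in the keratin results was not tested.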

How the data were processed

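RNA-seq of 6 libraries was used, 3 of BrM3-shAKR1B10 and 3 of BrM3-shNC, grouped and numbered as in the sample labels. The authors deposited 1 table of FPKM values per gene and library with gene length, position, strand and biotype. Per the submitters' processing notes, reads were aligned with HISAT2 2.0.5 and counted with featureCounts 1.5.0-p3. Strand setting and treatment of reads on several genes are not given in the sources used here. All 58735 genes, so every member too, matched GENCODE 29 (GRCh38) by position, strand and identifier.

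Reads were recovered as FPKM times gene length, divided by a step fitted in each library, and 100% of values were whole within 0.01. The library size implied by that step lay above the reads on genes in each silenced library. In each control library it lay below them. Genes with a mean of at least 1 FPKM (13150) entered limma 3.58.1 (R 4.3.3, lmFit, eBayes with trend) as log2(FPKM + 0.1), with Benjamini-Hochberg adjustment over all of them. Calls required both an adjusted p below 0.05 and a log2 fold change beyond 0.5 in size. Where groups are called overlapping or not, 3 libraries against 3 cannot give an exact permutation p below 0.1, so no such test was run. Intervals on read ratios are exact binomial intervals. On simulated data with 13150 genes, 95 of 103 genes changed by 1 on the log2 scale and 93 of 97 changed by 2 were recovered, with 4 false calls. The simulation changed 200 genes, none by less than 1, with the same spread beyond counting error for every gene. Its counts may therefore not hold for the real libraries. Members below the filter were given as reads without a test.

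Named were all members with a mean of at least 1 FPKM, members with at least 10 reads in a library, called genes of each related list, and markers of other cell types. Members given with fewer reads (KRT1, KRT6C, KRT12, KRT20, KRT76, SPRR1B, SPRR2D and SPRR4) or with none, and genes of the lists named at 0 or without a call, were chosen after their values were seen. The members and lists were chosen with earlier results of these data known, so no list is independent support. Shared windows of 100 bases were counted on GENCODE 29 transcripts. Promoter windows are from RefSeq (GRCh38.p14) for 43 of the 66 members. Python 3.11.15 with pandas 2.3.3 was used. The other settings tried were a pseudocount of 1 or 0.01, a filter at 5 FPKM or none, TPM and median-of-ratios scaling, eBayes without trend, a block for the replicate number, voom on the recovered reads, other fold thresholds, and each library left out in turn. The length of the principal transcript was added after seeing the data.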

Additional observations from a re-analysis of the deposited data

How the results depend on the processing

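KRT4 was called higher in all 18 fits (log2 fold change 1.08 to 1.27) and KRT17 lower in all 17 in which it was tested (-1.90 to -1.26). Of these fits, those with other fold thresholds are the main fit read at another cutoff. Median-of-ratios scaling left both log2 fold changes as in the main fit, so the counts of fits overstate the separate checks. SPRR1A was called higher in the 16 fits it entered (1.58 to 4.92), but in all of them save the fit with no filter it enters only through its level in the silenced libraries, so this count is no measure of stability. It was not tested at a mean of 5 FPKM or without BrM3-shAKR1B10 replicate 3, and KRT17 was not tested at a mean of 5 FPKM, which left 0 members called lower there. KRT16 was called in 14 of 18 fits (0.45 to 0.58) and KRT3 in 6 of 17 (0.34 to 0.54), among them TPM scaling (0.52) and voom on the reads (0.53). With no fold threshold 4 members were lower, as KRT7, KRT10 and KRT15 passed, and 4 were higher (KRT4, KRT16, KRT3 and SPRR1A). Members called higher, SPRR1A counted here and in the block fit, numbered 1 to 4 and members called lower 1 to 1 with each library left out, the lowest without BrM3-shAKR1B10 replicate 3. KRT7, KRT15 and KRT3 had adjusted p-values as high as 0.0832, 0.101 and 0.0851 in some fit, and KRT8 and KRT18 as low as 0.0103 and 0.00772 with voom.

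Over all genes, 980 were lower and 766 higher. Higher calls outnumbered lower ones with TPM scaling (873 lower, 902 higher) and voom (852 lower, 976 higher). A filter at 5 FPKM gave 532 and 290, no fold threshold 3044 and 2548, and a log2 fold change above 1 gave 205 and 168. A pseudocount of 1 gave 497 higher, and leaving out each library gave 940 to 977 lower and 649 to 765 higher. The fewer genes tested and the other thresholds account for their counts by construction, and the cause was not tested for TPM scaling, voom or the pseudocount. The fit with a replicate block called 967 genes lower and 719 higher, with 3 members higher and 1 lower. Deviations of libraries with the same number correlated at -0.0155 to 0.00388, so the numbers do not pair the libraries. Summed FPKM of the silenced libraries was 102% (type I) and 99.8% (type II) of the controls, 98.5% to 104% and 96.4% to 103% with each library left out. Depth limits what can be said of members under 10 reads in every library.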
